A study of Mus musculus with 12 samples.

Results

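The heat shock chaperones described here are 10 genes, Hspa1a, Hspa1b, Hspa8, Hspa5, Dnajb1, Hsph1, Hsp90aa1, Hsp90ab1, Hspb1 and Hspb8. They were taken by gene symbol from 2 expression tables that list 25124 genes each. All 10 were found in both tables and passed the filter on low values in both. The tables hold bulk RNA-seq of whole retinas from wild type C57BL/6J mice, in 12 libraries that form 6 groups of 2. In the single-IOP series, intraocular pressure (IOP) was raised to 30 mmHg for 1 h in a single eye of 3-month-old (3mo IOP) or 18-month-old (18mo IOP) animals, and the untreated contralateral eyes served as 3mo control and 18mo control. In the repeated-IOP series, animals that were 3 months old at the start had the same elevation 4 times, every 2 weeks, in one eye (4xIOP), and the other eye was left untreated (4xIOP control). Retinas were collected 2 days after the last elevation, so every control is an untreated eye of an animal whose other eye was treated.

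Heat shock proteins bind unfolded or misfolded proteins, and their genes are classically switched on by the transcription factor HSF1 when proteins unfold. HSP70 proteins work with J-domain partners, which deliver clients, and with exchange factors, which release nucleotide. HSP90 proteins finish the folding of kinases and receptors, and small heat shock proteins hold clients without using ATP. In the retina, chaperones are known for handling the large protein load of photoreceptors and for their induction by heat, light and pressure injury.

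The promoter sequences of the members are shown first because the stress-responsive chaperones are classically recognised by short heat shock elements. RefSeq promoters on GRCm38.p6 (mm10) were found for 7 of the 10 members, and Hspa8, Hsp90aa1 and Hsp90ab1 had no entry. The 250 bases before the start of the listed transcript were searched for GAANNTTC and TTCNNGAA, 2 facing units of the heat shock element. Each pattern reads the same on both strands, and the pair was present in 12.9% of 32536 distinct promoters of this length. It occurred in 4 of the 7 promoters, those of Hspa1a, Hspa1b, Hspb1 and Hsph1. The 3-unit patterns GAANNTTCNNGAA and TTCNNGAANNTTC, searched on both strands, were in none of the 7 and in 0.470% of all promoters. An ER stress element, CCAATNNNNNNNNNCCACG on either strand, was present in Hspa5 and in 0.114% of all promoters. The Hspa1a promoter lies at chr17:34972157-34972406 on the minus strand, that of Hspa1b at chr17:34959239-34959488 on the minus strand, and that of Hspb1 at chr5:135887669-135887918 on the plus strand. The Hsph1 promoter lies at chr5:149636316-149636565 and that of Hspb8 at chr5:116422865-116423114, both on the minus strand, and that of Hspa5 at chr2:34771840-34772089 on the plus strand. These 6 are printed 5′ to 3′ with heat shock or ER stress elements in capitals, Hspa1a with Hspa1b because they are near-copies, Hspb1 with Hspb8 because the expression of these small heat shock proteins went in opposite directions with age, and Hsph1 and Hspa5 for their elements.
Hspa1a promoter: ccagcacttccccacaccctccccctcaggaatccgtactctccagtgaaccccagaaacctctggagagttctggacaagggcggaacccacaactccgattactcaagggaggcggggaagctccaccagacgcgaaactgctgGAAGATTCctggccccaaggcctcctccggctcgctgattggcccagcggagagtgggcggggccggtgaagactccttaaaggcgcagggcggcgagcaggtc
Hspa1b promoter: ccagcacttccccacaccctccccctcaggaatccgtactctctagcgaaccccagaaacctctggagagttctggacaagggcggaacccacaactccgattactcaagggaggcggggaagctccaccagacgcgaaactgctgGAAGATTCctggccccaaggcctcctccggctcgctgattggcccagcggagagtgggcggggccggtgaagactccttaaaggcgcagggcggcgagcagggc
Hspb1 promoter: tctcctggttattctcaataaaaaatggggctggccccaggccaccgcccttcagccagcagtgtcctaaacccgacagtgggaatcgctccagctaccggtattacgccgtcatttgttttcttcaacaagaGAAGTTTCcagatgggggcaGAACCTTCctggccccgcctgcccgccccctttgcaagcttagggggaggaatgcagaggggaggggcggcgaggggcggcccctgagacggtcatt
Hsph1 promoter: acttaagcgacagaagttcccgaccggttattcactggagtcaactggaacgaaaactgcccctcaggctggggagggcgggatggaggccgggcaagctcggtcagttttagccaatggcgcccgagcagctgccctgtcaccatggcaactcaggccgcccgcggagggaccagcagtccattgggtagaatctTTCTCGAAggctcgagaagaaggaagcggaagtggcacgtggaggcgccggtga
Hspa5 promoter: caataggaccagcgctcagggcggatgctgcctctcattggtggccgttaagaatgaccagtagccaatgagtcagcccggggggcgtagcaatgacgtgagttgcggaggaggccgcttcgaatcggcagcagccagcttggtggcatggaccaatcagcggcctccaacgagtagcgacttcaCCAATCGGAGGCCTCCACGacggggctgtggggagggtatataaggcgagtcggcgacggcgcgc
Hspb8 promoter: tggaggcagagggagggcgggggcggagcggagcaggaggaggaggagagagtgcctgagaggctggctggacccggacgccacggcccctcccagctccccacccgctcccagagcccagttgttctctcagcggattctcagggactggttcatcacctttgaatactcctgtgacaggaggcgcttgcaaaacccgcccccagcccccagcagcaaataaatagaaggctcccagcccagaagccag

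The promoters of Hspa1a and Hspa1b were the same at 247 of 250 positions, and both hold a single element starting 104 bases before the transcript start. The Hspb1 promoter holds a pair of elements, starting 117 and 97 bases before the start, and the Hspb8 promoter holds none of these letters. The matches describe sequence only, since no binding was measured here.

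Near-copies also limit what the counts of some members mean. Of the 50-base windows in the Hspa1a transcript, 60.4% also occur in the transcripts of other genes, 58.8% in Hspa1b. Both genes lie on the minus strand of chromosome 17 (mm10), Hspa1a at 34969359 to 34972156 and Hspa1b at 34956429 to 34959238. The shared part was 73.2% in Hspa8, spread over 11 other annotated genes, 58.9% in Hspb1, all with Hsp25-ps1, and 58.5% in Hsp90aa1. It was 4.49% in Hsp90ab1, 0.407% in Dnajb1 and 0 in Hspb8, Hspa5 and Hsph1. The authors counted uniquely mapped tags only, so the split between Hspa1a and Hspa1b is uncertain, and the levels of the members with large shared parts rest on the remaining sequence. Gm20481 overlaps Hspa1a on the opposite strand over 2225 bases, and counting was by strand.

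Library depth lay between 39766335 and 59455088 tags, of which between 44.2% and 71.5% fell in exons. Every member was counted with at least 30 reads in every library, the fewest for Hspb1 (30 to 551 reads) and Hspb8 (63 to 985 reads), and the other members had at least 475. Summed rod photoreceptor markers, at 5344 to 28760 FPKM, matched the labelled tissue. Other cell types moved with the groups. Summed pigment epithelium markers (11 genes) were at 221 to 716 FPKM in the 3mo libraries and at 2.69 to 13.3 in the 18mo libraries, with none at 0 in any group. Summed immediate early genes (12 genes) were at 68.7 to 148 FPKM in the 3mo libraries and at 522 to 1757 in the 18mo libraries. Between untreated ages, 7 of 10 tested retinal ganglion cell markers were called lower (summed 374 to 706 FPKM at 3mo and 41.5 to 94.4 at 18mo), and all 8 of vascular endothelium (10.7 to 14.2 and 70.9 to 74.2), 6 of 10 of microglia and 4 of 10 of Muller glia were called higher. As a sign of RNA quality, the median FPKM of transcripts under 1000 bases was divided by that of transcripts over 4000 bases. This short-to-long ratio came to 1.89 and 4.70 for 3mo control, lay between 2.99 and 3.26 for 3mo IOP, and between 1.20 and 1.36 for the aged libraries. Whether any of these contribute to the differences between ages was not tested. In bulk retina, fewer cells of a type and less RNA per cell cannot be told apart. The labels do not say whether same-numbered libraries come from the same animal, and the p-values measure only the spread between these libraries.

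**Figure D1:**
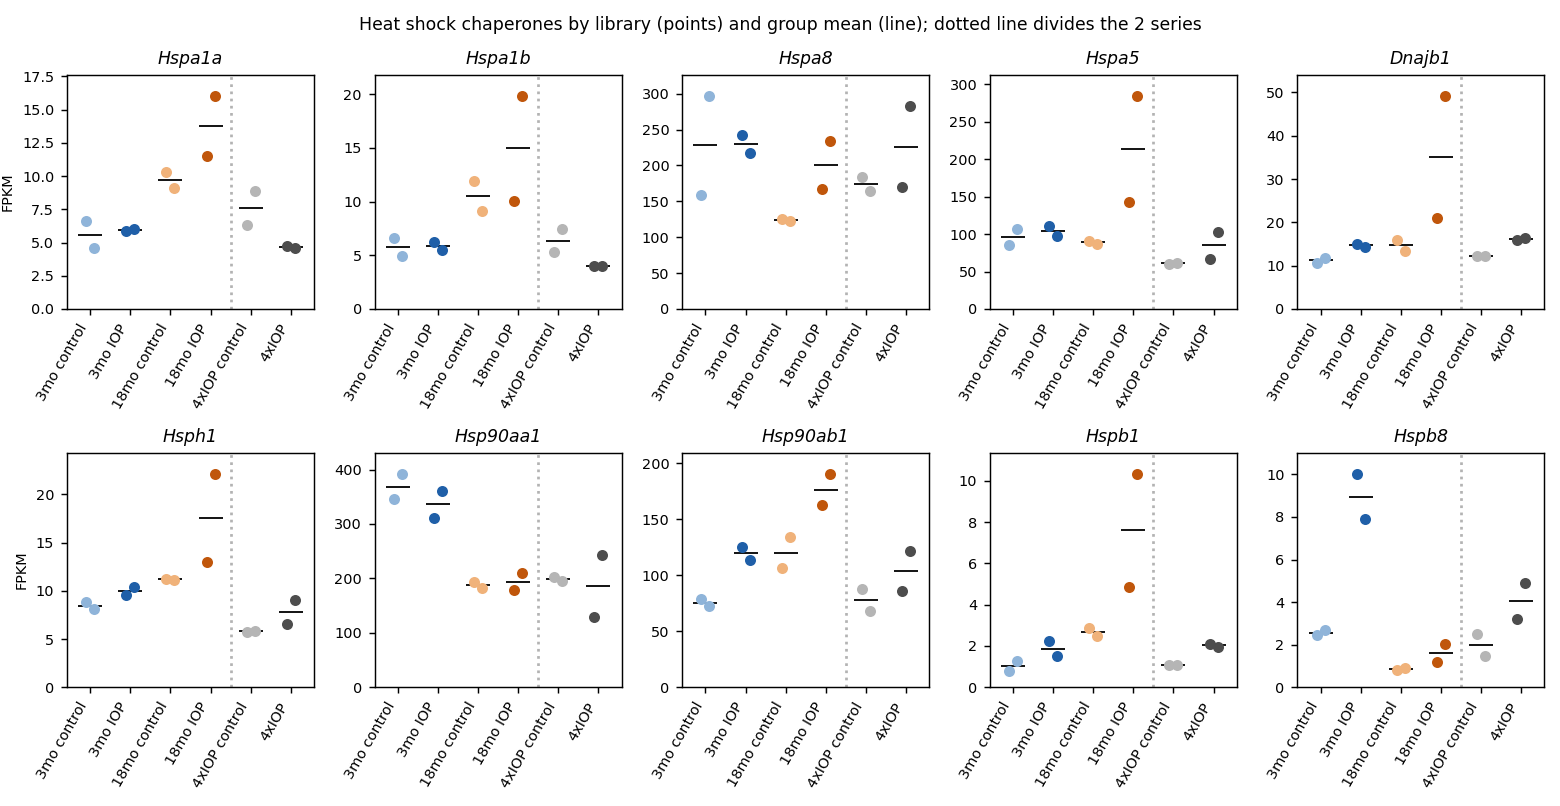
FPKM (vertical axes, linear from 0) of the 10 heat shock chaperones in each of the 12 libraries (points) by group, with the mean of a group as a line. Hspb8 reached 10.01 FPKM in 3mo IOP and stayed at or under 2.04 in the 18mo libraries, while replicate 2 of 18mo IOP was the highest of the 8 single-IOP libraries for 7 of the other 9 members.

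The question behind the comparisons is whether a mild pressure stress changes the retina, and whether age or repetition alters that change. With age, Hspb1 rose and Hspb8 fell in untreated eyes. The Hspb1 call was lost on leaving out any of the 4 control libraries. That of Hspb8 was lost with a pseudocount of 1 and on leaving out either 18mo control library. After a single elevation, Hspb8 rose in young retinas, a call that was lost under median-of-ratios, quantile and voom scaling and with the replicate block, and no member passed the test at 18mo or after 4 elevations. Changes are log2 fold changes on the log2(FPKM + 0.5) scale, which understates the change of weakly expressed genes. Calls needed an adjusted p of 0.05 or less in limma together with an absolute log2 fold change no smaller than 1. Between 18mo control and 3mo control, 2 of the 10 members were called, against 23.2% of all 13731 genes tested. By the adjusted p alone, 5 of 10 passed, against 45.9% of all genes. Between 18mo IOP and 3mo IOP, 5 of 10 were called, against 21.8% of all genes, and 8 passed by the adjusted p alone, against 42.6%.

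Between 3mo IOP and 3mo control, 1 of 10 members was called, against 0.575% of all genes, and 5 were higher in both treated libraries than in both controls, against 28.6%. Between 18mo IOP and 18mo control, none of the 10 was called by limma or by voom, against 0.124% of all genes by limma. All 10 had positive log2 fold changes, against 65.9% of all genes, of which 6 had an unadjusted p under 0.05, against 9.45% of all genes, but that of Hsp90aa1 (0.05) turned negative under median-of-ratios, quantile and voom scaling. Of the 10, 8 were higher without overlap, against 36.5% of all genes, and their median log2 fold change was 0.61 against 0.09 for all genes. Without replicate 2 of 18mo IOP that median was 0.38 with 8 positive, and without replicate 1 it was 0.92. Summed Muller glia markers were at 1744 to 2149 FPKM in 18mo control and at 3173 to 3257 in 18mo IOP, with all 10 positive (median 0.61) and 1 called. All 12 immediate early (median 1.07), all 9 tested lens (0.89) and 9 of 10 microglia genes (0.53) were positive too. Positive changes were fewer in blood (0 of 5 tested, median -2.37), pigment epithelium (2 of 10, -0.46) and rod markers (1 of 10, -0.32). None of these further genes was called. The part of these lists in the members' values was not tested. For the interaction of IOP with age, 0 members were called by limma or voom, as were 0.0% of all genes, and 2 had an unadjusted p under 0.05, against 1.59%. Between 4xIOP and 4xIOP control, none of the 10 was called by limma or voom, against 6.15% of 13718 genes, and 4 had an unadjusted p under 0.05, against 15.45% of all genes. There 5 members were higher without overlap, against 27.7% of all genes, and 2 were lower, against 12.7%. The 18mo IOP and 18mo control groups, and the 3mo groups, each enter several of these comparisons, so the comparisons are not independent.

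**Figure D2:**
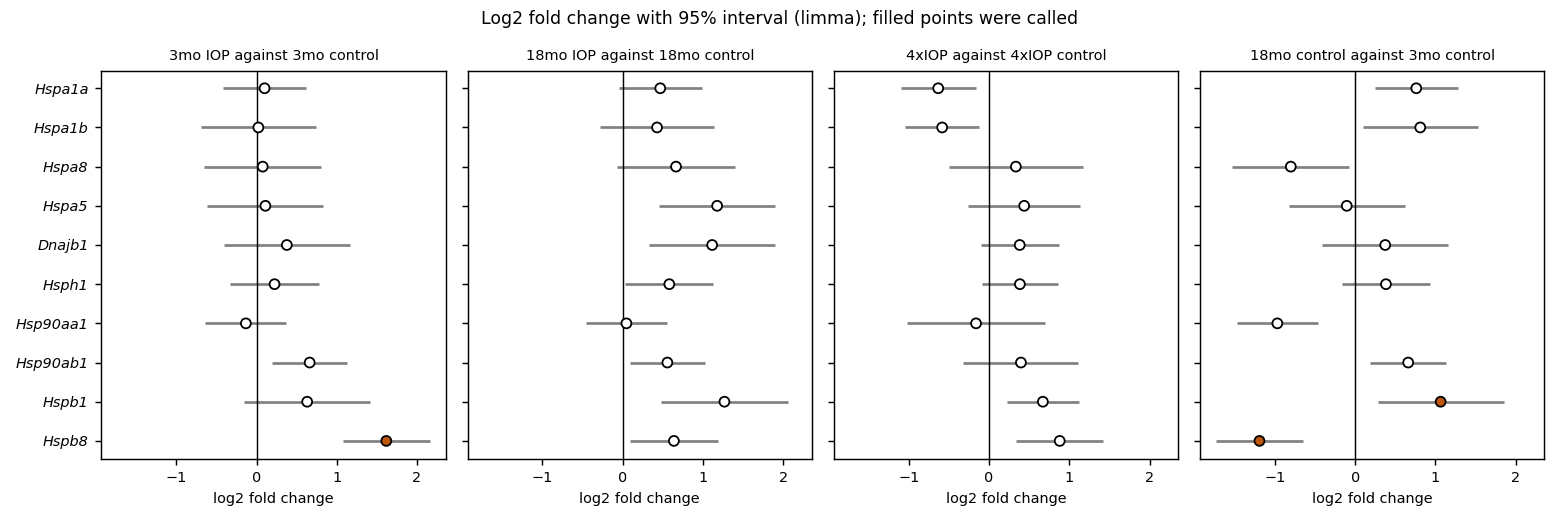
Log2 fold change (horizontal axes) of each member in 4 comparisons, with 95% intervals as bars, and filled points for members called in limma. Hspb8 alone was called after a single elevation at 3mo (1.62), and all 10 members lie at or right of 0 at 18mo, where Hsp90aa1 turned negative under median-of-ratios, quantile and voom scaling.

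Hspa1a and Hspa1b encode the stress-inducible cytosolic HSP70, and their transcripts were higher in aged than in young retinas. Hspa1a was at 6.61 and 4.59 FPKM in 3mo control, 5.88 and 6.03 after IOP at that age, 10.3 and 9.13 in 18mo control, and 11.5 and 16.0 in 18mo IOP. Hspa1b was at 6.64 and 4.92 in 3mo control, 6.197 and 5.46 after IOP at that age, 11.9 and 9.10 in 18mo control, and 10.1 and 19.8 in 18mo IOP. All 4 aged libraries were above all 4 young ones for both genes, and the young treated and untreated libraries overlapped. Between treated eyes of both ages, Hspa1a (log2 fold change 1.13 ± 0.23 SE, adjusted p = 0.0093) and Hspa1b (1.21 ± 0.31, adjusted p = 0.019) were called higher at 18mo. Between untreated eyes, the changes were 0.76 (adjusted p = 0.027) and 0.81 (adjusted p = 0.062), under the fold needed for a call, which Hspa1a reached without replicate 1 of 3mo control (1.00, adjusted p = 0.0078). Its adjusted p rose above 0.05 under median-of-ratios (change 0.60, adjusted p = 0.060) and voom scaling (0.64, adjusted p = 0.070), with the replicate block, without the filter, with only the 2 groups compared and without any one of the other 3 control libraries, up to 0.14. The calls between treated eyes did not hold without the filter on low values or without either 3mo IOP library, that of Hspa1a also not with the length trend removed (0.99), and without replicate 2 of 18mo IOP the changes were 0.90 and 0.74.

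Neither gene passed the test after a single elevation. At 3mo the log2 fold changes were 0.10 and 0.02 (adjusted p = 0.998 for both), and both turned negative under median-of-ratios, quantile and voom scaling. At 18mo they were 0.47 and 0.43 (adjusted p = 0.62 and 0.91), without replicate 1 of 18mo IOP they were 0.70 and 0.90, and without replicate 2 they were 0.24 and -0.04. After 4 elevations both genes were lower than in the control eyes. Hspa1a was at 6.31 and 8.85 FPKM in 4xIOP control and at 4.71 and 4.58 in 4xIOP, and Hspa1b at 5.29 and 7.41 and at 4.03 and 4.00. The groups did not overlap, but the changes of -0.63 (adjusted p = 0.12) and -0.58 (adjusted p = 0.15) did not pass the test. Within a library the ratio of Hspa1a to Hspa1b stayed between 0.81 and 1.19.

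Hspa8 encodes the constitutive cytosolic HSP70, the most abundant HSP70 of unstressed cells, and its libraries overlapped in most comparisons. It was at 159 and 297 FPKM in 3mo control, 242 and 218 after IOP at that age, 126 and 123 in 18mo control, and 167 and 234 in 18mo IOP. Replicate 2 of 3mo control, the library with the short-to-long ratio of 4.70, held the highest value of all. In untreated eyes Hspa8 was lower at 18mo in every library, with a change of -0.80 (adjusted p = 0.068), and it passed a call only without replicate 1 of 3mo control (-1.25, adjusted p = 0.0039). After IOP at 18mo the change was 0.66 (adjusted p = 0.61), and both treated libraries were above both controls. At 3mo it was 0.08 and turned negative under median-of-ratios, quantile and voom scaling. In the repeated-IOP series it was at 184 and 164 FPKM in the controls and at 170 and 282 after 4 elevations, with overlap.

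Hspa5 encodes BiP, the HSP70 of the endoplasmic reticulum and a classical target of the unfolded protein response. Its level differed little with age in untreated eyes and was higher after IOP in aged eyes. It was at 86.0 and 107 FPKM in 3mo control, 111 and 96.9 after IOP at that age, 91.4 and 86.7 in 18mo control, and 143 and 285 in 18mo IOP. Both 18mo IOP libraries stood above the other 6 of the series, with replicate 2 the highest. The change at 18mo was 1.18 ± 0.31 SE (unadjusted p = 0.0055, adjusted p = 0.20). It was 1.67 without replicate 1 of 18mo IOP (adjusted p = 0.041) and 0.68 without replicate 2. The difference between the responses at 18mo and 3mo was 1.07 (unadjusted p = 0.043, adjusted p = 1.0), and 0.57 without replicate 2 of 18mo IOP. In the repeated-IOP series Hspa5 was at 60.4 and 61.8 FPKM in the controls and at 66.7 and 103 after 4 elevations. The libraries did not overlap, and the change of 0.44 did not pass the test (adjusted p = 0.69).

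Dnajb1 encodes the J-domain partner HSP40, which activates the ATPase of HSP70, and Hsph1 encodes HSP110, its exchange factor. Dnajb1 was at 10.5 and 11.9 FPKM in 3mo control, 15.0 and 14.4 after IOP at that age, 16.0 and 13.4 in 18mo control, and 21.1 and 49.2 in 18mo IOP. Hsph1 was at 8.84 and 8.10, at 9.54 and 10.4, at 11.2 and 11.2, and at 13.0 and 22.1 in the same order. For both genes every treated library was above both controls of its age, and replicate 2 of 18mo IOP stood far above all others. After IOP the Dnajb1 changes were 0.38 at 3mo (adjusted p = 0.94) and 1.11 at 18mo (adjusted p = 0.25). Without replicate 1 of 18mo IOP the latter was 1.72 (adjusted p = 0.017), and without replicate 2 it was 0.51. The Hsph1 changes were 0.22 (adjusted p = 0.98) and 0.58 (adjusted p = 0.48), the latter 0.95 without replicate 1 of 18mo IOP and 0.21 without replicate 2.

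Between treated eyes of both ages Dnajb1 was called higher at 18mo (1.11 ± 0.34 SE, adjusted p = 0.032), and Hsph1 was 0.74 higher (adjusted p = 0.039), under the fold for a call. Without replicate 1 of 18mo IOP Hsph1 was called (1.11, adjusted p = 0.017), and without replicate 2 its change was 0.37. The Dnajb1 call did not hold under median-of-ratios or voom scaling, with the replicate block (adjusted p = 0.060), with only the 2 groups compared, with the length trend removed (0.96), without the filter on low values, without either 3mo IOP library, or without replicate 2 of 18mo IOP (0.51, adjusted p = 0.12). In that library the immediate early genes, which neurons induce within minutes of stimulation, summed to 1757 FPKM, against 914 in replicate 1 and 522 to 871 in 18mo control. Their part in the Dnajb1 values was not tested. In the repeated-IOP series Dnajb1 was at 12.2 and 12.2 FPKM in the controls and at 15.8 and 16.3 after 4 elevations, and Hsph1 was at 5.77 and 5.85 and at 6.58 and 9.09. Neither change passed the test (0.38, adjusted p = 0.52, and 0.39, adjusted p = 0.49), and the groups did not overlap for either gene. The Dnajb1 row of that table rests on another transcript than in the single-IOP series, so its levels are not compared between the series.

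**Figure D3:**
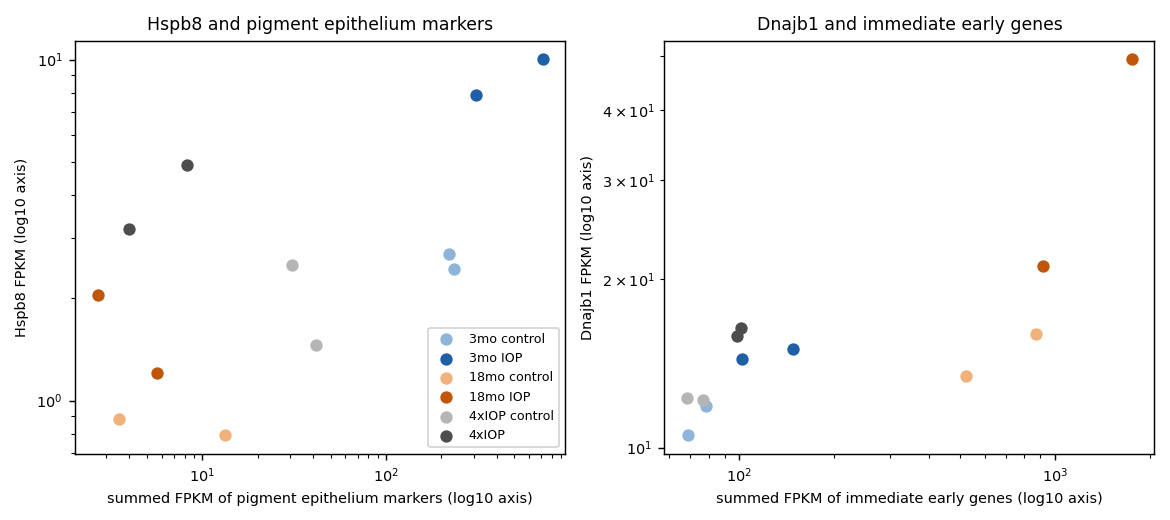
Hspb8 against summed pigment epithelium markers, and Dnajb1 against summed immediate early genes, in FPKM on log10 axes, with a point per library. The 18mo IOP library with the highest Dnajb1 (49.2 FPKM) also has the highest immediate early sum (1757), and the 3mo IOP library with the highest Hspb8 (10.01) the highest pigment epithelium sum (716).

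Hsp90aa1 and Hsp90ab1 encode the 2 cytosolic HSP90 proteins, the first stress-inducible and the second constitutive, and their changes with age had opposite signs. Hsp90aa1 was at 346 and 392 FPKM in 3mo control, 311 and 361 after IOP at that age, 193 and 183 in 18mo control, and 178 and 210 in 18mo IOP. Hsp90ab1 was at 78.8 and 72.2, at 125 and 114, at 107 and 134, and at 162 and 190 in the same order. Every aged library was below every young one for Hsp90aa1, whose change between untreated eyes was -0.97 ± 0.22 SE (adjusted p = 0.011). Hsp90ab1 was higher at 18mo in untreated eyes (0.66 ± 0.20, adjusted p = 0.031), but it did not pass by the adjusted p under median-of-ratios (0.49, adjusted p = 0.096) or voom scaling (0.49, adjusted p = 0.060), with the replicate block, without the filter, with only the 2 groups compared, or on leaving out either 18mo control library or replicate 2 of 3mo control, at adjusted p of up to 0.23. Neither reached the fold for a call, although Hsp90aa1 did under median-of-ratios scaling (-1.14), under voom (-1.14), with the trend on transcript length removed (-1.12) and without replicate 1 of 3mo control (-1.06). Quantile scaling gave -0.36 for Hsp90aa1 (adjusted p = 0.25) and 1.20 for Hsp90ab1 (adjusted p = 0.0050), which was then called.

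After IOP, Hsp90ab1 was higher in both treated libraries than in both controls at 3mo (0.66, unadjusted p = 0.012, adjusted p = 0.31) and at 18mo (0.56, unadjusted p = 0.026, adjusted p = 0.39). Hsp90aa1 changed by -0.13 and 0.05 with overlap, and its small change at 18mo turned negative under median-of-ratios, quantile and voom scaling. In the repeated-IOP series Hsp90aa1 was at 202 and 195 FPKM in the controls and at 129 and 244 after 4 elevations, and Hsp90ab1 was at 88.1 and 67.9 and at 85.9 and 121. Both overlapped there.

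The ratio of the 2 transcripts within a library does not depend on library scaling, and its groups lay apart in each comparison. Hsp90aa1 was 4.39 and 5.42 times Hsp90ab1 in 3mo control, 2.48 and 3.17 times in 3mo IOP, 1.81 and 1.36 times in 18mo control, and 1.098 and 1.102 times in 18mo IOP. It was 2.29 and 2.87 times in 4xIOP control and 1.501 and 2.01 times in 4xIOP. Both treated libraries were below both controls in each of the 3 IOP comparisons, and the aged groups were below the young ones. The ratio was looked at after the values were seen, and with 2 libraries a group an exact two-sided permutation test cannot go below p = 0.333, which each of the 5 comparisons reached. The log2 ratio differed by -1.64 between untreated ages, -0.80 with IOP at 3mo, -0.51 at 18mo and -0.56 after 4 elevations. The transcript lengths used were close, 2838 and 2495 bases, but 58.5% of the Hsp90aa1 windows are shared with other genes and 4.49% of those of Hsp90ab1.

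**Figure D4:**
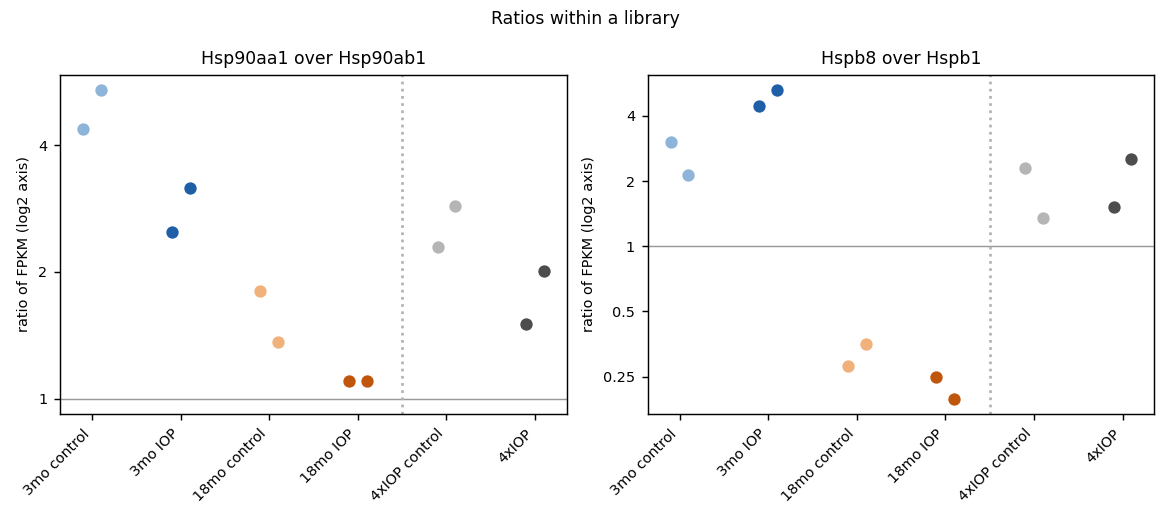
Ratio of Hsp90aa1 to Hsp90ab1 and of Hspb8 to Hspb1 in FPKM (vertical axes, log2 scale) in each library by group. The first ratio falls from 5.42 in a 3mo control library to 1.098 in 18mo IOP, and the second lies above 1 in every 3mo and repeated-IOP library and at or below 0.354 in every 18mo library.

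Hspb1 and Hspb8 encode small heat shock proteins that bind unfolding clients, and Hspb8 is known to act with the exchange factor Bag3 in directing damaged proteins to autophagy. Hspb1 was higher in aged retinas and Hspb8 lower. Hspb1 was at 0.804 and 1.26 FPKM in 3mo control, 2.25 and 1.497 after IOP at that age, 2.85 and 2.50 in 18mo control, and 4.87 and 10.3 in 18mo IOP. Hspb8 was at 2.43 and 2.69, at 10.01 and 7.89, at 0.794 and 0.885, and at 1.21 and 2.04 in the same order. The ages did not overlap for either gene, in treated or in untreated eyes. Hspb1 was called higher at 18mo in untreated eyes (1.06 ± 0.34 SE, adjusted p = 0.035) and in treated eyes (1.70 ± 0.34, adjusted p = 0.0094). Hspb8 was called lower in both, by -1.19 ± 0.24 SE (adjusted p = 0.0083) and by -2.17 ± 0.24 (adjusted p = 0.0022).

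The Hspb1 call in untreated eyes was lost on leaving out any of the 4 control libraries, without the filter, with a pseudocount of 1, with the replicate block (adjusted p = 0.068) and under median-of-ratios, quantile and voom scaling, at adjusted p of up to 0.15. In treated eyes it was lost without the filter and without replicate 2 of 3mo IOP (adjusted p = 0.067). That of Hspb8 was lost with a pseudocount of 1 and on leaving out either 18mo control library (adjusted p = 0.053 for both). The Hspb8 call in treated eyes was kept under every alternative, with a change between -2.59 and -1.88. The ratio of Hspb8 to Hspb1 was 2.14 to 5.27 in the 3mo libraries and 0.198 to 0.354 in the 18mo libraries. Summed pigment epithelium markers went the same way as Hspb8 between the ages, and all 10 of those tested were called lower in both age comparisons. Whether they contribute to the Hspb8 values was not tested.

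Hspb8 was also the only member called after IOP at 3mo, with a change of 1.62 ± 0.24 SE (adjusted p = 0.032), a 3.49-fold ratio of mean FPKM. At 18mo the change was 0.64 (unadjusted p = 0.027, adjusted p = 0.40), 0.93 without replicate 1 of 18mo IOP and 0.35 without replicate 2, and the difference between the ages was -0.98 (unadjusted p = 0.019, adjusted p = 1.0). The 3mo change lay between 1.39 and 1.78 under all alternatives, but the call was lost under median-of-ratios (adjusted p = 0.070), quantile and voom scaling, without the filter, with the replicate block (adjusted p = 0.11), and without either 3mo IOP library or replicate 1 of 3mo control. Pigment epithelium markers summed to 221 to 233 FPKM without and 309 to 716 with the elevation, but 5 of the 10 tested had positive changes, with a median of 0.09 against 0.13 for all genes, and 1 was called. Microglia markers summed to 34.6 to 51.5 FPKM without and 96.9 to 115 with the elevation, and all 10 microglia, all 12 immediate early and all 9 tested lens genes had positive changes there, none of them called. In the repeated-IOP series the summed pigment epithelium markers went the other way, at 31.0 to 41.5 FPKM in the controls and 3.98 to 8.25 after 4 elevations. Hspb8 was there at 2.50 and 1.46 FPKM in the controls and at 3.19 and 4.91 after 4 elevations. Its change there was 0.88 ± 0.25 SE (adjusted p = 0.051), and it was called only without replicate 1 of 4xIOP control (1.19, adjusted p = 0.0093). At the same change of 0.88 the adjusted p was 0.012 with the replicate block and 1.8e-05 with the crossed pairing (chosen after seeing the data), and without replicate 2 of 4xIOP control the change was 0.57 (adjusted p = 0.76). The part of these other cell types in the Hspb8 values after IOP was not tested.

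Hspb1 was higher after IOP at both ages and after 4 elevations, and none of these changes passed the test. They were 0.63 at 3mo (adjusted p = 0.74) and 1.27 at 18mo (unadjusted p = 0.0058, adjusted p = 0.20). After 4 elevations Hspb1 was at 2.10 and 1.95 FPKM against 1.09 and 1.08 in the controls, a change of 0.67 (unadjusted p = 0.0066, adjusted p = 0.075). Both treated libraries were above both controls each time. Without replicate 1 of 18mo IOP the aged change was called (1.77, adjusted p = 0.046), and without replicate 2 it was 0.76.

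The order of the levels, in FPKM, changed at its top and bottom. In 3mo control Hsp90aa1 (mean 369) was followed by Hspa8 (228), Hspa5 (96.4) and Hsp90ab1 (75.5), each above the next in both libraries. In 18mo IOP Hspa5 (214), Hspa8 (200), Hsp90aa1 (194) and Hsp90ab1 (176) lay together, and only the last was above the gene below it, Dnajb1 (35.1), in both libraries. Hspb1 was the lowest member in both 3mo groups and both repeated-IOP groups (means 1.03 to 2.03), and Hspb8 in both 18mo groups (0.840 and 1.62).

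Genes with the most similar pattern were named by the Pearson correlation of log2(FPKM + 0.5) over the 8 single-IOP libraries, among 13721 tested genes outside the members. These libraries share 2 ages and differ in depth, so the values describe the pattern only. The closest were Midn, Abca1 and Doc2b to Hspa1a (r up to 0.997), Gtpbp3, D11Wsu47e and Srf to Hspa1b (0.986), Nfkbia, Id1 and Ppp2r1b to Hspb1 (0.995), and Cdc42ep2, Gm5089 and Ubl4a to Hspb8 (0.987). They were Lif, Ifrd1 and Flnc to Dnajb1 (0.996), Dnmt3b, Tirap and Col5a3 to Hsph1 (0.994), Adm, Ptgs2 and Flnc to Hspa5 (0.988), and Ubxn8, Trmt2b and Ptma to Hspa8 (0.981). For the HSP90 pair they were Twistnb, Krr1 and Zfp943 with Hsp90aa1 (0.996) and H2-D1, H2-L and Pdzrn3 with Hsp90ab1 (0.994). Among the members, Dnajb1 and Hsph1 went together (r = 0.969), as did Hspa1a and Hspa1b (0.972), and Hspa1a and Hsp90aa1 went in opposite directions (-0.851).

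Other chaperone genes were described from lists of 101 genes, 96 of them tested in the single-IOP series. With age in untreated eyes, 8 were called higher and 13 lower, 21.9% against 23.2% of all genes, and their median log2 fold change was -0.09 against 0.16 for all genes. All 8 subunits of TRiC, the chaperonin that folds actin and tubulin, had lower values at 18mo (median -1.01, where 57.1% of all genes had positive changes), and Tcp1, Cct3, Cct4 and Cct6a were called. All 8 were also lower under every scaling tried, with 5 called under median-of-ratios and 0 under quantile scaling (median -0.54). Cct6a was at 96.9 and 160 FPKM in 3mo control and at 55.8 and 51.2 in 18mo control. On the list of mitochondrial chaperones, which also holds proteases, Hspe1 (-1.78), Grpel1 (-1.60) and Clpp (-1.06) were called lower and Lonp1 (1.17) higher. Hspe1 was at 48.07 and 139.6 FPKM in 3mo control and at 23.6 in one and 23.5 in the other 18mo control library, so replicate 2 of 3mo control, with the short-to-long ratio of 4.70, stood apart here too.

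Hsf1, the heat shock factor itself, was called higher at 18mo in untreated eyes (1.08, adjusted p = 0.0091), at 7.89 and 5.07 FPKM in 3mo control and 13.9 and 14.0 in 18mo control, and Hsbp1, which binds it, was called lower (-1.26). Under median-of-ratios, quantile and voom scaling the change in Hsf1 was 0.92, 0.96 and 0.97, short of the fold threshold, and with the length trend removed it was 0.99. Hsbp1 was not called under quantile scaling (-0.60), with the length trend removed (-0.61) or without the filter (adjusted p = 0.063). Bag3, an exchange factor that HSF1 induces, was called higher (1.52, adjusted p = 0.010, and 0.066 without the filter), at 0.670 and 0.389 FPKM and at 2.63 and 2.22. Hspa2 (1.93), the unfolded protein response sensor Ern1 (1.26), the ER ubiquitin ligase Syvn1 (1.23) and the myosin chaperone Unc45a (1.23) were also called higher. Hspb11 (-1.89), Manf (-1.26), Hspa13 (-1.11), Dnajb6 (-1.07) and Hspb3 (-1.01) were called lower.

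With IOP, none of the 96 was called at 3mo or at 18mo by limma. At 3mo, 8 of 96 had an unadjusted p under 0.05, against 1169 of 13731 genes (8.51%). At 18mo, 12 of 96 had one, against 1297 of 13731 genes (9.45%). Voom called 3 of all genes at 3mo and 0 at 18mo. The largest changes at 3mo were in Hmox1 (1.46, adjusted p = 0.52), Bag3 (1.30, adjusted p = 0.18) and Serpinh1, the collagen chaperone (1.24, adjusted p = 0.16). At 18mo they were in Hmox1 (1.99, adjusted p = 0.24), Bag3 (1.54, adjusted p = 0.13) and Cryab (1.51, adjusted p = 0.24). Bag3 was at 5.45 and 11.7 FPKM in 18mo IOP against 2.63 and 2.22 in its controls, Hmox1 at 6.35 and 29.4 against 3.42 and 2.82, and Cryab at 76.9 and 161 against 44.3 and 34.1. All 3 were again far higher in replicate 2 than in replicate 1. Lens markers summed to 9.95 FPKM in replicate 1 and 25.8 in replicate 2 of 18mo IOP, against 4.74 and 6.85 in 18mo control. Their part in the Cryab values was not tested. The other genes of the endoplasmic reticulum list had positive changes in 20 of 22 cases at 18mo, with a median of 0.26 against 0.09 for all genes, and 21 of 22 at 3mo (0.21 against 0.13), where 65.9% and 74.6% of all genes were positive. Median-of-ratios scaling left 17 positive at 18mo and 11 at 3mo. Between treated eyes of both ages 4 genes were called higher and 10 lower, 14.6% against 21.8% of all genes, with Bag3 (1.76), Hspa2 (1.43) and Ern1 (1.15) among the former and Hspb11, Hspe1, Grpel1, Hsbp1, Hspb3, Cct6a, Dnajb6, Hsf4, Clpp and Cct4 the latter.

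After 4 elevations, 3 of 93 tested chaperone genes were called, all higher, a share of 3.23% against 6.15% of all genes. Between the same groups microglia markers rose from 16.9 to 17.7 FPKM in the controls to 138 to 144 in 4xIOP (9 of 10 called higher), and rod markers summed to 11080 to 11560 and to 5344 to 8100 with none called, and their part in these values was not tested. Hmox1, which degrades haem, was at 0.849 and 0.949 FPKM in the controls and at 8.22 and 9.91 in 4xIOP (2.77, adjusted p = 1.3e-06). The small heat shock proteins Cryaa (4.12, adjusted p = 4.3e-05) and Cryab (1.69, adjusted p = 0.0025) are abundant lens proteins. Cryaa was at 1.91 and 0.126 FPKM in the controls and at 16.7 and 25.98 in 4xIOP. The lens list, which holds Cryaa but not Cryab, summed to 1.72 to 6.30 FPKM in the controls and 75.7 to 136 in 4xIOP. All 14 of its tested genes were called higher. Of its 18 genes, 4 were at 0 in the controls (Crygd, Cryge, Crygf and Mip) and 1 in 4xIOP (Crygf). The part of lens tissue in the Cryaa and Cryab values was not tested.

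**Figure D5:**
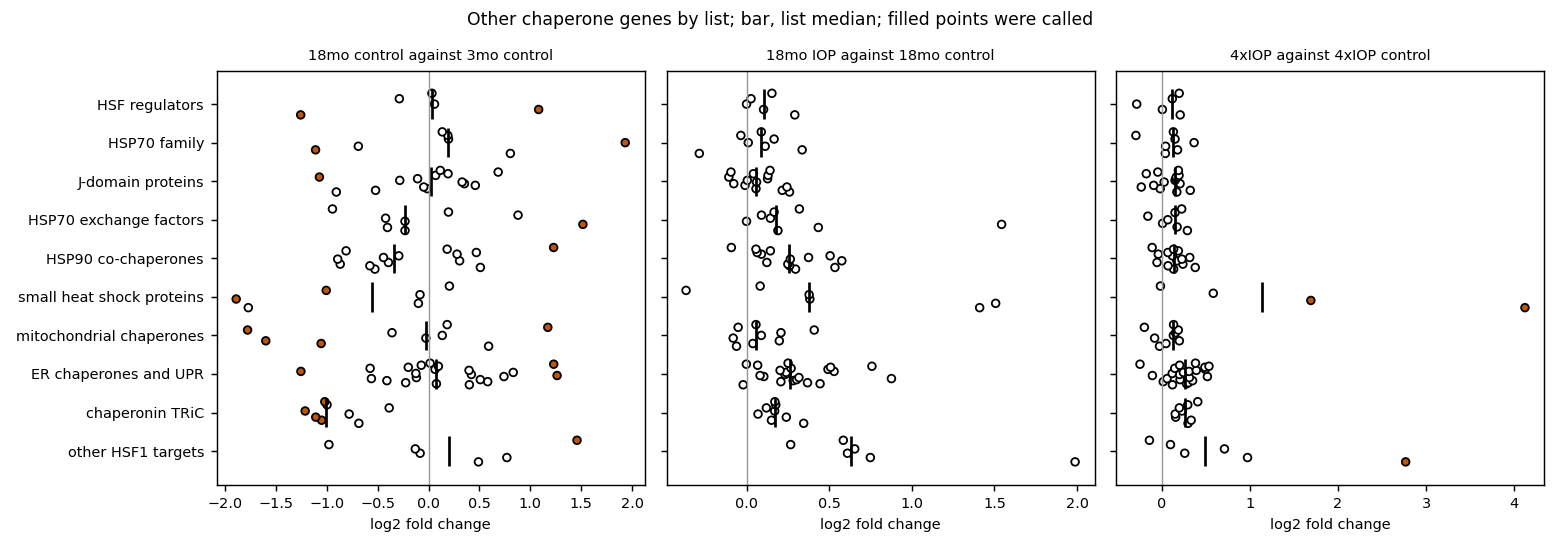
Log2 fold changes (horizontal axes) of the other chaperone genes by list, a point per gene, with the list median as a bar and called genes filled, in 3 comparisons. All 8 TRiC subunits lie left of 0 with age, and Cryaa (4.12) and Hmox1 (2.77) lie farthest right after 4 elevations.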

How the data were processed

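Whole mouse retinas were profiled by poly(A)-enriched, strand-specific RNA-seq in 12 libraries. The authors aligned reads to mm10 with STAR, counted uniquely mapped tags in exons with HOMER, keeping one isoform per locus, and deposited FPKM values in a table per series, without pooling replicates. Read length is not given in the sources used here. Library depth was recovered from the step between FPKM values. It gave whole reads, to within about the rounding of the FPKM, for at least 99.9% of the values checked. Groups were taken from the sample labels. The 13731 and 13718 genes whose mean over a series reached 0.5 FPKM were fitted as log2(FPKM + 0.5) with limma 3.58.1 in R 4.3.3 (lmFit, eBayes with a trend, Benjamini-Hochberg adjustment). The 4 groups of the single-IOP series were fitted together, and the repeated-IOP series alone. The deposited values were FPKM rather than counts, so the count model of the authors was replaced, and voom on the recovered reads was an alternative. The steps were tested on simulated data. Alternatives were pseudocounts of 0.1 and 1, no filter and one at 2 FPKM, median-of-ratios and quantile scaling, removal of the trend with transcript length, a replicate block, only the groups compared, Hspa1a and Hspa1b summed, and leaving out each library. Named were all members, called genes of the chaperone lists or otherwise the 3 of largest change, and for each member the 3 genes of closest pattern. The members and lists were chosen with earlier results of these data known.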

Additional observations from a re-analysis of the deposited data

Results flagged for a closer look

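Hspa1a went in opposite directions in different treated groups. Its log2 fold change was 0.47 between 18mo IOP and 18mo control, where both treated libraries were above both controls, and -0.63 between 4xIOP and 4xIOP control, where both were below. Neither change passed the test, and the difference between them was not tested, since the series are separate tables. Between 3mo IOP and 3mo control, with the younger age and a single elevation, the change was 0.10 with overlap. The number of elevations and the series cannot be told apart.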

How the results depend on the processing

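The number of members called in an age comparison depended on several choices. Between untreated ages it was 2, and 5 by the adjusted p alone (chosen after seeing the data), 0 with a pseudocount of 1, 1 without the filter on low values, and between 0 and 4 on leaving out a library. Between treated ages it was 5, and 8 by the adjusted p alone, 1 without the filter, 3 with the length trend removed, and between 1 and 7 on leaving out a library. At 3mo IOP it was 1, and 0 without the filter and under median-of-ratios, quantile and voom scaling, and between 0 and 1 on leaving out a library. At 18mo IOP it was 0, also under median-of-ratios, quantile and voom scaling, without the filter and with the replicate block. Leaving out replicate 1 of 18mo IOP leaves 1 treated library. The median change was then 0.92 for the members and 0.10 for all genes, against 0.61 and 0.09 in the main fit. After 4 elevations it was 0, and between 0 and 1 on leaving out a library. The cause of these moves was not tested. Same-numbered libraries deviated in opposite directions (r between -0.530 and -0.275). With a replicate block the calls numbered 1 between untreated ages and 0 at 3mo IOP. Of all genes, 20 and 0 were then called higher at 3mo and 18mo IOP. The crossed pairing, chosen after seeing the data, called 3 members at 18mo IOP. It called 298 of all 13731 genes higher and 8 lower there, against 16 and 1 in the main fit. Directions turned for small changes. At 3mo IOP, median-of-ratios, quantile and voom gave -0.092, -0.071 and -0.10 for Hspa1a, -0.17, -0.14 and -0.18 for Hspa1b, -0.099, -0.040 and -0.10 for Hspa5 and -0.13, -0.041 and -0.13 for Hspa8. At 18mo IOP they gave -0.083, -0.0090 and -0.084 for Hsp90aa1. Quantile scaling gave 0.53 for Hspa5 between untreated ages and 0.39 for Hspa8 between treated ages. On leaving out a library, the change between untreated ages ran from -0.26 to 0.049 for Hspa5, and between treated ages from -0.46 to 0.029 for Hspa8. At 3mo IOP it ran from -0.14 to 0.34 for Hspa1a, -0.18 to 0.22 for Hspa1b, -0.044 to 0.27 for Hspa5 and -0.37 to 0.52 for Hspa8. At 18mo IOP it ran from -0.045 to 0.90 for Hspa1b and -0.072 to 0.16 for Hsp90aa1. The interaction ran from -0.068 to 0.88 for Hspa1b, -0.27 to 0.058 for Hsp90ab1 and -0.015 to 0.73 for Hsph1. After 4 elevations it ran from -0.030 to 0.70 for Hspa8 and -0.62 to 0.30 for Hsp90aa1. The median-of-ratios factors moved the median of all genes from 0.13 to -0.05 at 3mo IOP, and turned the calls between untreated ages from 1595 higher and 1590 lower to 1059 and 1968.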
